A study of Mus musculus with 6 samples.

Results

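The genes described here encode the alpha subunits of the stimulatory and inhibitory G proteins and the adenylyl cyclases they control in mouse bone marrow-derived macrophages. They were chosen by name as 8 rows of the deposited count table, Gnas, Gnai2, Gnai3, Adcy3, Adcy4, Adcy6, Adcy7 and Adcy9, of 57180 genes in all. RNA was sequenced from cultures given IL-4 together with CGRP (3 libraries) and from cultures given IL-4 alone (3 libraries). All cultures came from marrow of wild-type mice aged 6 to 8 weeks. The cells were grown for 7 days in M-CSF (20 ng/mL), the growth factor that turns marrow cells into macrophages, and the treatments then lasted 24 h, with 20 ng/mL of IL-4. Both groups received IL-4, so a change with CGRP alone was not measured. The CGRP dose is not given here, since the wording of the labels leaves it ambiguous.

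CGRP is a neuropeptide of sensory nerves whose receptor, made of Calcrl and Ramp1, couples to the stimulatory G protein Gs. The active Gs alpha subunit switches on adenylyl cyclases in the plasma membrane, which make cyclic AMP from ATP, and the inhibitory Gi alpha subunits restrain several of these enzymes. In macrophages cyclic AMP is known for damping inflammatory cytokine release. The cyclase isoforms differ in their added controls, such as calcium, G beta-gamma subunits or protein kinases, so the set of isoforms a cell holds shapes how it reads these signals. In the deposited annotation the 3 G alpha genes carry the G alpha protein domain and the 5 cyclases the cyclase catalytic domain, and all 8 carry the term for the cAMP signalling pathway.

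Total counts ranged from 21768588 to 23869303 in IL-4+CGRP libraries and from 20088895 to 24060444 in IL-4 libraries. The level of 8 macrophage markers was summed in counts scaled to library size with TMM factors (CPM). The sum was 13839 to 14106 in IL-4+CGRP libraries and 13625 to 13852 in IL-4 libraries, with all 8 detected. Of these Cd14 (1.53-fold, edgeR adjusted p = 5.9e-04) and Itgam (1.33-fold, edgeR adjusted p = 0.0012) rose. Of the rest, none of which passed, Adgre1 (log2 fold change -0.11), Cd68 (-0.10) and Fcgr1 (-0.03) ran lower. Csf1r (0.09), Mertk (0.11) and Lyz2 (0.07) ran higher. Of the lists for other cell types, the sum over 6 dendritic cell markers was 59.6 to 69.5 CPM in IL-4+CGRP libraries and 148 to 156 CPM in IL-4 libraries, which was mostly Itgax. In that list Itgax (2.37-fold, edgeR adjusted p = 1.3e-06) and Siglech (3.13-fold, edgeR adjusted p = 0.022) fell. Flt3 (log2 fold change 0.16, edgeR adjusted p = 0.86) and Zbtb46 (-0.10, edgeR adjusted p = 0.89) did not pass. Xcr1 and Cd209a had too few counts to be tested. The sum over 5 endothelial markers, mostly Pecam1, Kdr and Vwf, was 179 to 200 CPM in IL-4+CGRP libraries and 138 to 157 CPM in IL-4 libraries. Pecam1 (1.45-fold, edgeR adjusted p = 0.0011) and Kdr (1.23-fold, edgeR adjusted p = 0.046) rose. The fibroblast and stroma sum was 48.7 to 54.7 CPM in IL-4+CGRP libraries and 43.6 to 46.8 CPM in IL-4 libraries, and the mast cell and basophil sum 5.18 to 5.86 CPM in IL-4+CGRP libraries and 6.57 to 7.38 CPM in IL-4 libraries. The other 4 lists overlapped between the groups. The part of these differences in the results below was not tested. IL-4+CGRP replicate 2 stood apart from its group: along the main axis of a principal component analysis, which held 37.6% of variance, it scored -0.17, where IL-4+CGRP replicates 1 and 3 scored 21.98 and 27.05 and the IL-4 replicates -25.97, -11.67 and -11.22. The main results are therefore also given without that library. It was singled out on these same values, so fits without it are no independent support. Over all genes, leaving it out raised the calls from 307 to 915 higher and from 204 to 950 lower. Whether replicates are separate cultures or animals is not stated in the labels, and the p-values cover no more than the variation among these 6 libraries, possibly technical.

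Promoter windows are shown for a gene that was lower with CGRP (Gnas), a gene that was higher (Adcy3), a gene with a like log2 fold change that missed the threshold (Adcy9) and a gene that was level (Gnai3). They run from 250 bases before to 50 bases after a transcript start, from RefSeq on GRCm38.p6, a different build from the GRCm39 named by the submitters. Of the 8 genes, 6 matched the table, with 12 starts. Shown are the last of 4 listed Gnas starts (chr2:174329756-174330055, plus strand), the first of 2 Adcy3 starts (chr12:4133147-4133446, plus strand), Adcy9 (chr16:4420449-4420748, minus strand) and Gnai3 (chr3:108146103-108146402, minus strand). Capitals mark TGACG on either strand, the half-site of the cyclic AMP response element that CREB binds.
Gnas: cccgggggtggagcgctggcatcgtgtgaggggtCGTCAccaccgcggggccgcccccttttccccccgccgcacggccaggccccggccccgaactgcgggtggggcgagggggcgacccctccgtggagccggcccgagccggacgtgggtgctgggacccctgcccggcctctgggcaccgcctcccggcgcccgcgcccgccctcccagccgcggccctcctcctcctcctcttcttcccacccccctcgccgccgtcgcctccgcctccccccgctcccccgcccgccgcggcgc
Adcy3: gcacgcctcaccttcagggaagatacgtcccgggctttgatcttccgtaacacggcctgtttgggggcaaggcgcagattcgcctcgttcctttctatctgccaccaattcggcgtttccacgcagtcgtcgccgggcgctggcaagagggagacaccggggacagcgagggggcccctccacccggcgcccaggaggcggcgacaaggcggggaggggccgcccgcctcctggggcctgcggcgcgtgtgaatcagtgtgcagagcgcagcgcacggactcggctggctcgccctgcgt
Adcy9: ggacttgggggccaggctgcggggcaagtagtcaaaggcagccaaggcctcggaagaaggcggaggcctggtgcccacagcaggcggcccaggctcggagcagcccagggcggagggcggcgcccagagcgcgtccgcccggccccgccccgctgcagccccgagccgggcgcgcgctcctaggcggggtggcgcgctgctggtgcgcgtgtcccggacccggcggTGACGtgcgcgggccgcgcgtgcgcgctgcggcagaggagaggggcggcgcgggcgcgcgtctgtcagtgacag
Gnai3: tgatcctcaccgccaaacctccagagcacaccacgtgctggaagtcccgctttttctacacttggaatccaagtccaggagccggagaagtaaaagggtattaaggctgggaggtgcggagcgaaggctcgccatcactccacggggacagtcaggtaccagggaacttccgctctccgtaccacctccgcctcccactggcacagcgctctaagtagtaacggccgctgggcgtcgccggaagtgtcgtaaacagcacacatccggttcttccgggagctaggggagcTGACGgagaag
Counting the transcript start as 0, the half-site began at position -216 in this Gnas window, -24 in Adcy9 and 39 in Gnai3, and the first of 3 Adcy7 windows, which is not printed, held 1 at position -28. The Adcy3 windows and the Adcy4 window held no such letters. In all, 6 of the 12 windows held the half-site, of which a pair of overlapping Gnas windows hold the same site, against 20.8% of 32851 mouse promoter windows. The whole element, TGACGTCA, which contains the half-site on both strands, was in 0 of the 12 windows and in 1.79% of all windows. The GC box GGGCGG, on either strand, was in 5 of the 12 windows, 3 times in the Gnas window shown, and in 35.7% of all windows. A match is a description of the letters only.

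Gnas was lower with CGRP, Adcy3 and Adcy6 were higher, and the other genes did not pass the test. With edgeR's quasi-likelihood test and Benjamini-Hochberg adjustment over 13260 tested genes, 3 of the 8 genes passed at an adjusted p under 0.05, 2 higher and 1 lower, where 3.85% of all tested genes passed, 2.32% as higher and 1.54% as lower. All 8 genes passed the filter on low counts, Adcy4 narrowly. The median log2 fold change of the 8 genes was 0.12, and that of all tested genes was 0.00. CPM did not overlap between the groups for 5 of the 8 genes, Gnas, Gnai2, Adcy3, Adcy6 and Adcy9, against 21% of all tested genes. The 8 genes were chosen with earlier results of these data known, so these shares describe only the genes chosen. In bulk RNA, fewer cells of a type and less RNA per cell cannot be told apart.

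**Figure D1:**
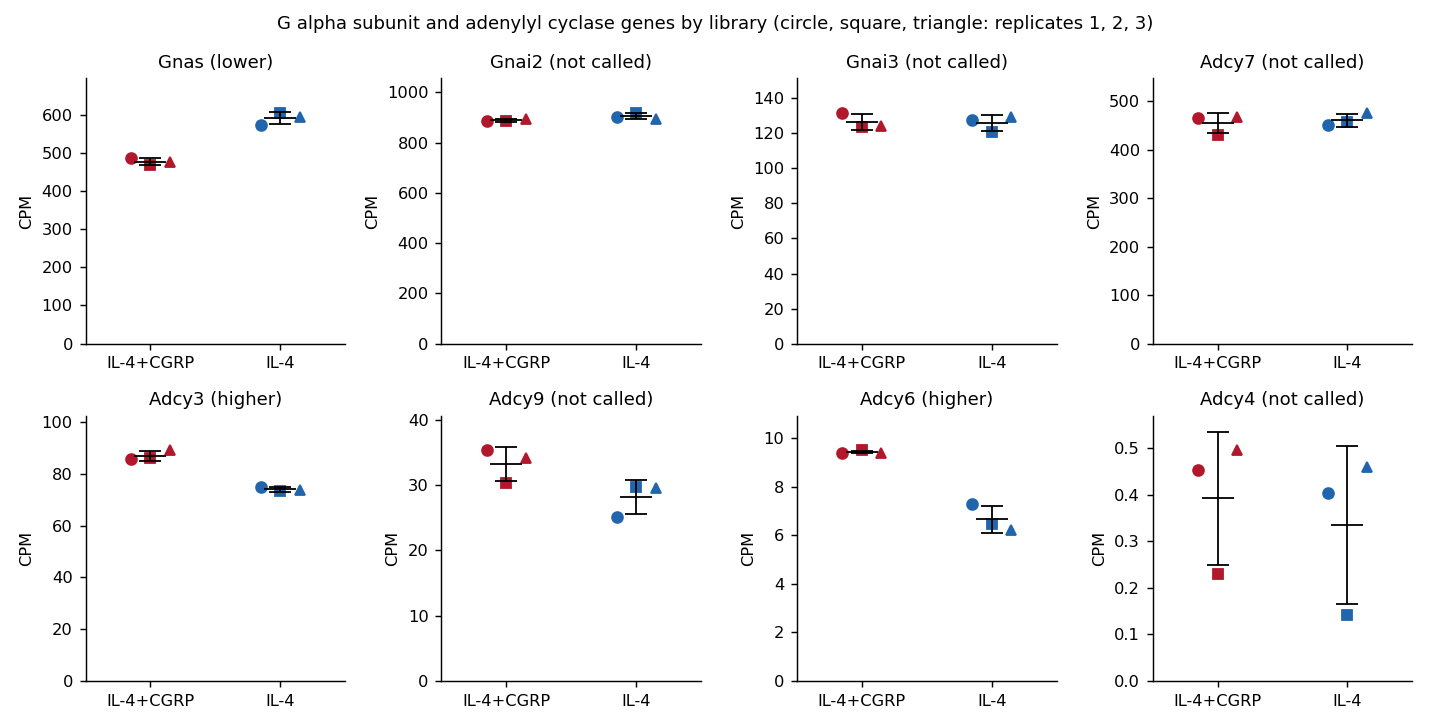
Counts scaled to library size (CPM, vertical axis from 0) of the 8 genes in each library, with IL-4+CGRP in red and IL-4 in blue. Symbols are replicates and bars are mean and SD of 3 libraries; for Gnas the 3 IL-4+CGRP libraries lie at 468 to 486 CPM, below the IL-4 libraries at 573 to 604 CPM.

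Gnas encodes the alpha subunit of Gs, which carries the signal from the receptor to the cyclases. Its level was 486, 468 and 476 CPM in IL-4+CGRP replicates 1 to 3, against 573, 604 and 594 CPM in IL-4 replicates 1 to 3. Every IL-4+CGRP library was below every IL-4 library, and the gap between the groups exceeded the spread within either. Gnas fell 1.24-fold, a log2 fold change of -0.31 ± 0.04 (SE; 95% interval -0.40 to -0.22; edgeR adjusted p = 0.0017). Without IL-4+CGRP replicate 2 the log2 fold change was -0.30 (edgeR adjusted p = 7.7e-05). The call held in all 16 alternative settings, with log2 fold changes of -0.33 to -0.28. Gnas is an imprinted locus whose several starts share downstream exons, and the gene-level count does not separate the Gs alpha transcripts from the others. The antisense transcript of the locus, Gnasas1, had 1 count in IL-4+CGRP replicate 1 and 0 in the other libraries. Gm20721, which shares 1486 bases with Gnas transcripts in GENCODE M21, has no row under that name in the deposited count table, so there were no counts of it to compare.

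The Gi alpha genes were close to level between the groups. Gnai2, the main Gi alpha subunit of blood cells, had 885, 888 and 893 CPM in IL-4+CGRP libraries and 903, 918 and 896 CPM in IL-4 libraries. The groups did not overlap, but the highest IL-4+CGRP library and the lowest IL-4 library nearly met. The log2 fold change was -0.03 ± 0.04 (SE; 95% interval -0.11 to 0.06; edgeR adjusted p = 0.77). Gnai3, a widely expressed Gi alpha subunit, had 132, 124 and 124 CPM in IL-4+CGRP libraries and 128, 121 and 129 CPM in IL-4 libraries. Its groups overlapped, with a log2 fold change of 0.01 ± 0.05 (SE; 95% interval -0.11 to 0.12; edgeR adjusted p = 0.97). The intervals leave out a fall of the size seen in Gnas for either gene.

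The G alpha subunits compete for the same beta-gamma partners, and those of Gs and Gi act in opposite ways on several, not all, of the cyclases. Their ratio within a library was therefore also measured, which does not depend on how libraries are scaled. The Gnas to Gnai2 ratio of counts was 0.549, 0.528 and 0.533 in IL-4+CGRP libraries, against 0.634, 0.658 and 0.663 in IL-4 libraries. It was lower by 0.28 on the log2 scale (by 0.27 without IL-4+CGRP replicate 2), from means of -0.90 ± 0.03 in IL-4+CGRP libraries and -0.62 ± 0.03 in IL-4 libraries (SD, n = 3 each; exact permutation p = 0.10, two-sided, the smallest that 3 against 3 libraries can give, and 0.12 adjusted over 6 ratios). The Gnas to Gnai3 ratio was 3.69, 3.79 and 3.83 in IL-4+CGRP libraries, against 4.48, 5.003 and 4.60 in IL-4 libraries, with no overlap and the same exact p. The Gnai2 to Gnai3 ratio overlapped between the groups, with a log2 difference of -0.03 (exact permutation p = 0.60).

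**Figure D2:**
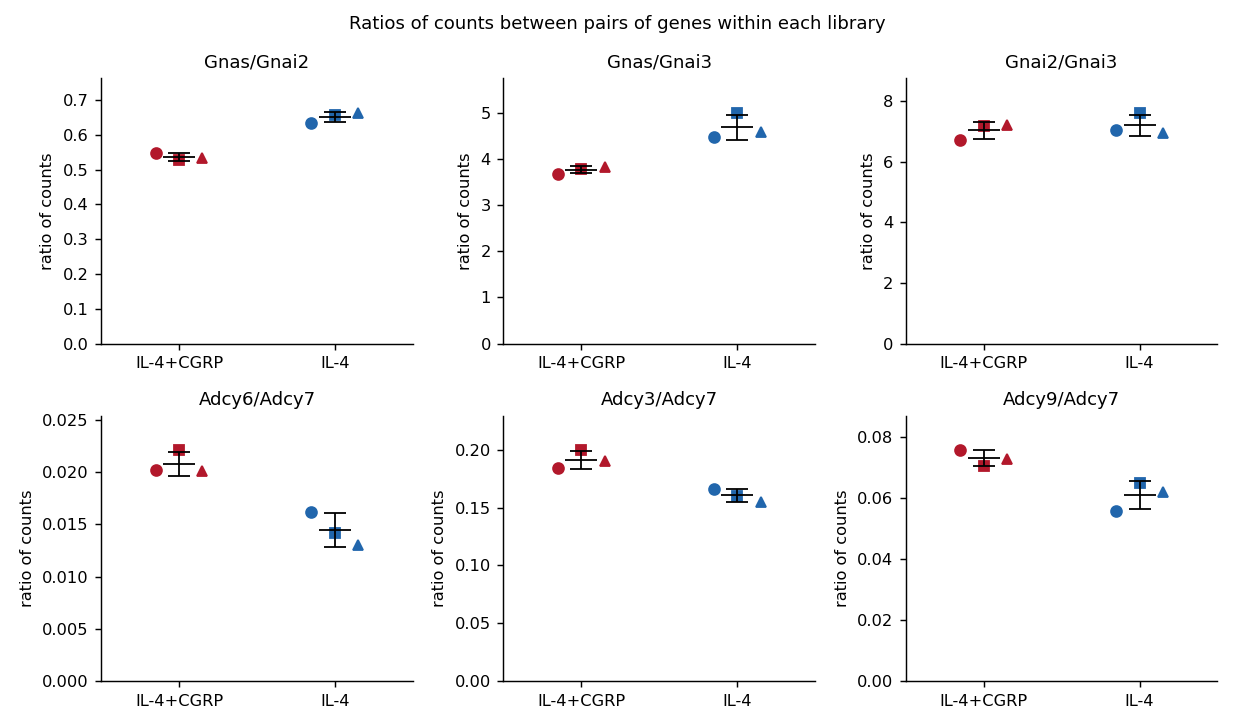
Ratio of counts between 2 genes within each library (vertical axis from 0), with IL-4+CGRP in red and IL-4 in blue; bars are mean and SD of 3 libraries. The Gnas to Gnai2 ratio averages 0.536 in IL-4+CGRP libraries and 0.652 in IL-4 libraries, and only the Gnai2 to Gnai3 ratio, of the 6 shown, overlaps between the groups.

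Adcy6, a cyclase inhibited by both Gi and calcium, had the largest log2 fold change of the 8 genes. It measured 9.41, 9.505 and 9.42 CPM in IL-4+CGRP libraries, against 7.29, 6.48 and 6.21 CPM in IL-4 libraries. The IL-4+CGRP libraries were nearly equal to each other and all were higher than the IL-4 libraries. Adcy6 rose 1.42-fold (log2 fold change 0.51 ± 0.11, SE; 95% interval 0.27 to 0.74; edgeR adjusted p = 0.023). The deposited Adcy6 values are not whole numbers in 4 of 6 libraries, and in all 6 they add up to a whole number (tolerance 1e-06) with those of Gm29331, an antisense gene that shares 495 bases with it in GENCODE M21. The 2 genes together had 228, 210 and 211 counts in IL-4+CGRP libraries, against 144, 144 and 153 counts in IL-4 libraries. That is 9.52 ± 0.12 CPM in IL-4+CGRP libraries and 6.81 ± 0.46 CPM in IL-4 libraries (SD, n = 3), a ratio of 1.4, so the difference was nearly as large with the shared reads put together.

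Adcy3, a cyclase best known for its place in olfactory signalling, had 85.95, 86.05 and 89.15 CPM in IL-4+CGRP libraries, against 75.0, 73.4 and 73.7 CPM in IL-4 libraries. Both groups were tight and did not overlap. Adcy3 rose 1.18-fold (log2 fold change 0.23 ± 0.05, SE; 95% interval 0.13 to 0.34; edgeR adjusted p = 0.022). It shares 924 bases with Cenpo, a centromere protein gene on the opposite strand, and its values are also not whole. The sums of Adcy3 and Cenpo were whole in 0 of 6 libraries, so Cenpo does not account for all of the shared reads. Cenpo measured 17.4 ± 0.21 CPM in IL-4+CGRP libraries and 15.6 ± 2.07 CPM in IL-4 libraries (SD, n = 3; edgeR adjusted p = 0.51), and the 2 genes together 104 ± 1.86 CPM in IL-4+CGRP libraries and 89.7 ± 2.17 CPM in IL-4 libraries. The Adcy3 and Adcy6 calls were close to the threshold. Under DESeq2 both ended, with an adjusted p = 0.0502 for Adcy3 and an adjusted p = 0.0521 for Adcy6. With the replicate number as a block in the edgeR fit both ended too (edgeR adjusted p = 0.098 for Adcy3 and 0.078 for Adcy6). Both also ended when IL-4+CGRP replicate 1, IL-4+CGRP replicate 3, IL-4 replicate 2 or IL-4 replicate 3 was left out, and for Adcy3 the same held of IL-4 replicate 1; the highest edgeR adjusted p of these fits was 0.132 for Adcy3 and 0.131 for Adcy6. Without IL-4+CGRP replicate 2 both passed, with edgeR adjusted p = 0.0045 for Adcy3 and adjusted p = 0.012 for Adcy6.

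Adcy9, a cyclase that responds only weakly to forskolin, had 35.3, 30.3 and 34.1 CPM in IL-4+CGRP libraries, against 25.1, 29.7 and 29.6 CPM in IL-4 libraries. The groups did not overlap, but IL-4+CGRP replicate 2 was close to IL-4 replicates 2 and 3. The log2 fold change was 0.24 ± 0.09 (SE; 95% interval 0.05 to 0.43), about the size of that of Adcy3, with a wider spread and an edgeR adjusted p = 0.19. Without IL-4+CGRP replicate 2 it was 0.30 and passed as higher (edgeR adjusted p = 0.016, where its alternatives gave 0.016 to 0.54). This made 3 of the 8 genes higher. That library had been singled out on these same values, so the pass is no independent support.

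Adcy7, a cyclase that Gs and G beta-gamma stimulate together and that is known as a main isoform of immune cells, was level between the groups. It had 467, 431 and 468 CPM in IL-4+CGRP libraries and 450, 457 and 476 CPM in IL-4 libraries. The lowest library of all was IL-4+CGRP replicate 2, and the groups overlapped. The log2 fold change was -0.02 ± 0.05 (SE; 95% interval -0.13 to 0.09; edgeR adjusted p = 0.88), 0.01 with plain library totals as the scaling, and 0.02 without IL-4+CGRP replicate 2. Adcy4, another cyclase stimulated by G beta-gamma, was near the limit of detection, with 11, 5 and 11 counts in IL-4+CGRP libraries and 8, 3 and 11 counts in IL-4 libraries. Its 95% interval of -0.89 to 1.34 (log2) spans both a fall of the size of that of Gnas and a rise of the size of that of Adcy6, so a change of either size was not detectable at this depth.

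**Figure D3:**
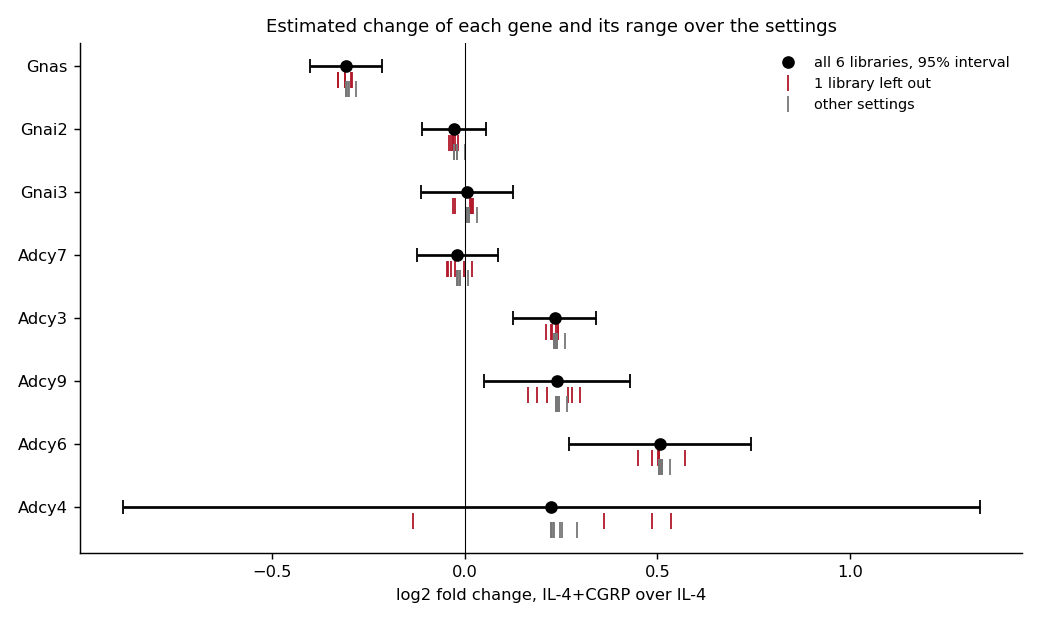
Log2 fold change of IL-4+CGRP over IL-4 (horizontal axis) for each gene, with the 95% interval from all 6 libraries in black, the estimate with 1 library left out in red, and the other settings in grey. Gnas stays between -0.33 and -0.28 in all 16 settings, and Adcy6 between 0.45 and 0.57.

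Set per length, the order of the genes was the same in both groups. Length-corrected levels (TPM) were computed from the deposited counts and gene lengths; how the deposited length of a gene with several transcripts was chosen is not given in the sources used here, which bears on Gnas in particular. Gnai2 was highest, at 1157 ± 53.3 TPM in IL-4+CGRP libraries and 1131 ± 36.6 TPM in IL-4 libraries (SD, n = 3 here and below). Gnas followed at 296 ± 18.1 TPM in IL-4+CGRP libraries and 351 ± 19.0 TPM in IL-4 libraries. Adcy7 came next, with 177 ± 16.0 TPM in IL-4+CGRP libraries and 172 ± 9.39 TPM in IL-4 libraries, above Gnai3 with 89.7 ± 6.50 TPM in IL-4+CGRP libraries and 85.7 ± 3.56 TPM in IL-4 libraries. Below these lay Adcy3 (43.1 ± 2.47 TPM in IL-4+CGRP libraries and 35.2 ± 0.64 TPM in IL-4 libraries) and Adcy9 (17.1 ± 2.07 TPM in IL-4+CGRP libraries and 13.9 ± 1.65 TPM in IL-4 libraries). Adcy6 had 3.62 ± 0.14 TPM in IL-4+CGRP libraries and 2.44 ± 0.13 TPM in IL-4 libraries, and Adcy4 0.27 ± 0.11 TPM in IL-4+CGRP libraries and 0.22 ± 0.11 TPM in IL-4 libraries. No neighbours in this order overlapped in any library.

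The cyclase pool was made mostly of Adcy7, and no difference in its make-up could pass an exact permutation test of 3 against 3 libraries. Adcy7 was 73.6%, 72.9% and 73.4% of the summed level per length of all 10 Adcy genes in IL-4+CGRP libraries, against 76.6%, 76.6% and 77.2% in IL-4 libraries. The mean was 3.46 percentage points lower in IL-4+CGRP libraries, with no overlap between groups, and 3.25 points lower without IL-4+CGRP replicate 2. The share of Adcy3 averaged 17.9% ± 0.64 in IL-4+CGRP libraries and 15.7% ± 0.52 in IL-4 libraries, that of Adcy9 7.06% ± 0.29 in IL-4+CGRP libraries and 6.18% ± 0.48 in IL-4 libraries, and that of Adcy6 1.501% ± 0.07 in IL-4+CGRP libraries and 1.09% ± 0.12 in IL-4 libraries (SD, n = 3). Each of these 4 shares had an exact permutation p = 0.10, the smallest this design allows, and 0.175 adjusted over the 7 cyclases with counts in every library. Shares add up to 100%, so they are not independent of each other. The summed cyclase level itself was 254, 218 and 254 TPM in IL-4+CGRP libraries and 212, 225 and 235 TPM in IL-4 libraries, which overlapped (exact permutation p = 0.30).

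**Figure D4:**
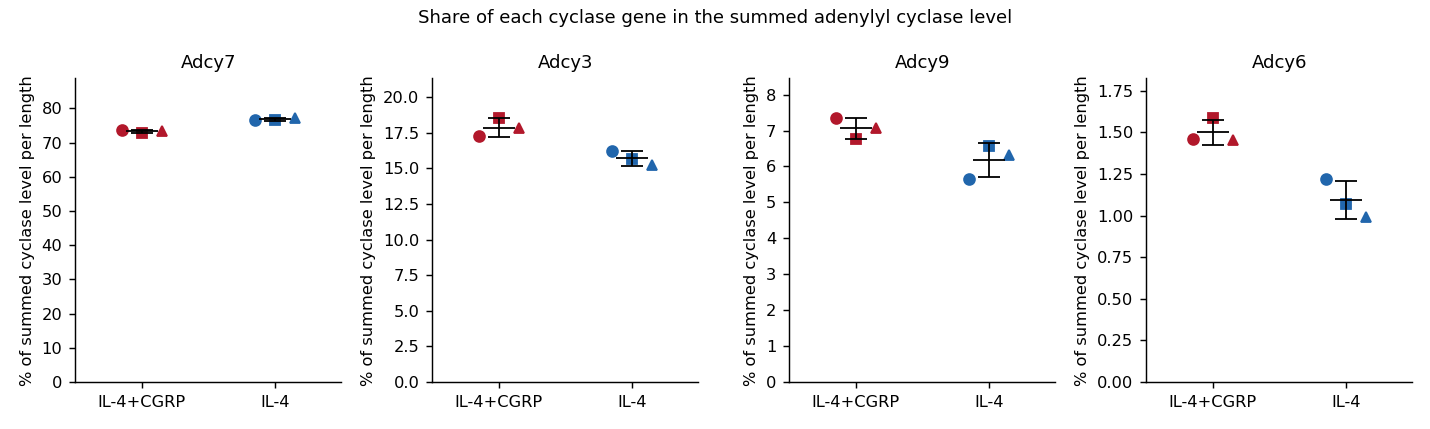
Share of 4 cyclase genes in the summed adenylyl cyclase level per length, in percent of the sum in each library (vertical axes from 0), with IL-4+CGRP in red and IL-4 in blue; bars are mean and SD of 3 libraries. Adcy7 averages 73.3% in IL-4+CGRP libraries and 76.8% in IL-4 libraries, and none of the 4 shares overlap between the groups.

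The ratios to Adcy7, taken from the same counts, do not depend on library scaling. None could pass an exact permutation test of 3 against 3 libraries. The Adcy6 to Adcy7 ratio was 0.0202, 0.0221 and 0.0201 in IL-4+CGRP libraries, against 0.0162, 0.0141 and 0.0130 in IL-4 libraries, higher by 0.53 on the log2 scale and by 0.48 without IL-4+CGRP replicate 2. The Adcy3 to Adcy7 ratio was higher by 0.25 and the Adcy9 to Adcy7 ratio by 0.26 on the log2 scale, both with no overlap. All 3 had an exact permutation p = 0.10, the smallest this design allows (0.12 adjusted over the 6 ratios). Of the cyclases outside the 8 genes, Adcy5, a close relative of Adcy6, had 29, 15 and 11 counts in IL-4+CGRP libraries and 17, 13 and 17 counts in IL-4 libraries (log2 fold change 0.14 ± 0.38, SE; edgeR adjusted p = 0.89). Adcy2 had 1 to 7 counts, Adcy1 and Adcy10 at most 2, and Adcy8 0 in every library.

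Among the other subunits of heterotrimeric G proteins, Gng4 was the 1 tested gene that passed. Gng4 encodes a G gamma subunit, the lipid-anchored partner of G beta. It had 66, 49 and 49 counts in IL-4+CGRP libraries, against 4, 5 and 1 in IL-4 libraries. The summed counts differed 15.6-fold after scaling (95% Clopper-Pearson interval 8.29 to 33.2, for counting error only), and the fitted log2 fold change was 3.91 ± 0.40 (SE; edgeR adjusted p = 2.2e-04). The call held in all 15 alternatives in which Gng4 could be tested, with 3.95 without IL-4+CGRP replicate 2. Its level stayed low, at 2.39 CPM in IL-4+CGRP libraries and 0.16 CPM in IL-4 libraries, while Gnb1, a main G beta subunit, had 441 CPM in IL-4+CGRP libraries and 426 CPM in IL-4 libraries. Of 12 tested G beta and gamma genes 1 rose and 0 fell (8.33% called, where 3.85% of all tested genes were), with a median log2 fold change of -0.08. The others ran down to a log2 fold change of -0.45 ± 0.22 for Gngt2 (SE; edgeR adjusted p = 0.42), and Gng11 had -0.35 ± 0.14 (SE; 95% interval -0.65 to -0.05; edgeR adjusted p = 0.23). Of 7 other G alpha genes tested, 0 passed. In that list Gna12 had a log2 fold change of 0.14 ± 0.06 (SE; edgeR adjusted p = 0.30), and Gnaq, which activates phospholipase C, 0.06 ± 0.05 (SE; edgeR adjusted p = 0.59); of the 7, 1 had an unadjusted p under 0.05, which was Gna12.

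No tested gene on the list of G protein chaperones and non-receptor regulators passed. Of 10 tested chaperones and regulators 0 passed the edgeR test, and 0 had an unadjusted p under 0.05; the smallest p-values were those of Pdcl, a chaperone of G beta-gamma (log2 fold change -0.12 ± 0.07, SE; edgeR adjusted p = 0.45), and Gpsm3, which binds Gi alpha (-0.06 ± 0.05, SE; edgeR adjusted p = 0.63). Ric8b, the chaperone of Gs alpha, averaged 12.1 CPM in IL-4+CGRP libraries and 11.8 CPM in IL-4 libraries, with a log2 fold change of 0.04 ± 0.11 (SE). Of 7 receptor kinases and arrestins, which switch receptors off, 0 passed and 2 had an unadjusted p under 0.05. These were Grk3 (log2 fold change 0.30 ± 0.09, SE; edgeR adjusted p = 0.090) and Arrb2 (0.12 ± 0.05, SE; edgeR adjusted p = 0.27).

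Upstream of Gs, 1 of 12 tested receptor and RAMP genes rose and 0 fell (8.33% called, where 3.85% of all tested genes were). That was Ramp3, a calcitonin-family receptor partner with 80, 53 and 73 counts in IL-4+CGRP libraries, against 29, 23 and 25 counts in IL-4 libraries (log2 fold change 1.34 ± 0.23, SE; edgeR adjusted p = 0.0072, a call that ended without IL-4 replicate 2 or 3; 1.47 without IL-4+CGRP replicate 2). The genes of the CGRP receptor itself did not pass: Ramp1 had 26, 26 and 30 counts in IL-4+CGRP libraries, against 42, 44 and 48 counts in IL-4 libraries (log2 fold change -0.77 ± 0.22, SE; edgeR adjusted p = 0.095), and Calcrl had a log2 fold change of -0.19 ± 0.09 (SE; edgeR adjusted p = 0.32). Upstream of Gi, 5 of 17 tested receptors rose and 1 fell, or 35.3% called, where 3.85% of all tested genes were, with a median log2 fold change of 0.25. The lists were chosen with earlier results of these data known, so this share describes only the receptors put on the list. Ccr1, a chemokine receptor, rose by 0.60 ± 0.07 (log2, SE; edgeR adjusted p = 3.5e-04), and this call held in every setting tried. Hcar2, the niacin receptor (0.89 ± 0.18), Cxcr4, the receptor of Cxcl12 (0.36 ± 0.07), P2ry13, an ADP receptor (0.32 ± 0.08), and C5ar1, the receptor of the complement peptide C5a (0.25 ± 0.05, log2 and SE), also rose, with edgeR adjusted p from 0.015 to 0.045. Ccr2, the receptor of Ccl2, fell by 0.38 ± 0.08 (log2, SE; edgeR adjusted p = 0.018). The Hcar2, Cxcr4, P2ry13, C5ar1 and Ccr2 calls each ended in at least 4 of the 6 fits with 1 library left out, though none without IL-4+CGRP replicate 2. The deposited values of Ccr2, Gna12, Gpsm3 and Gngt2 are not all whole numbers, and whether reads were shared with overlapping genes was not tested.

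**Figure D5:**
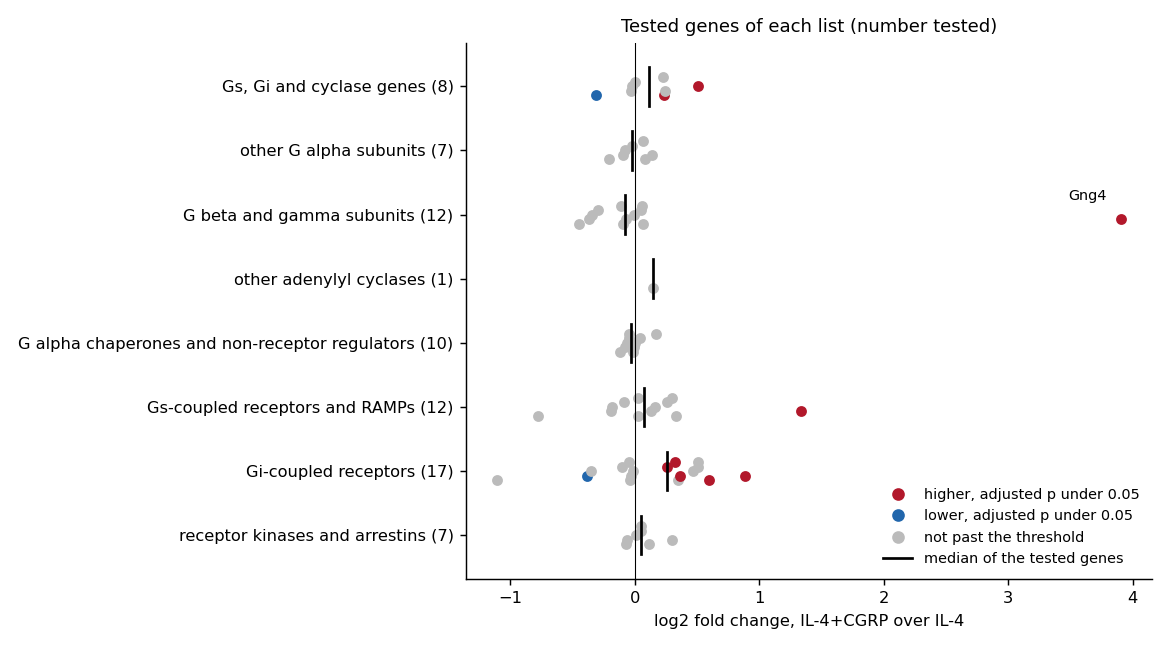
Log2 fold change of IL-4+CGRP over IL-4 (horizontal axis) of every tested gene in each list, with the number tested in brackets; red is higher and blue lower at an edgeR adjusted p under 0.05, and the black line is the median of the list. Gng4 at 3.91 lies far to the right of the other G beta and gamma genes, and the Gi-coupled receptors hold 5 red points and 1 blue one.

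In the annotation term for cAMP signalling that all 8 genes carry, 104 other genes were tested, of which 5 rose and 1 fell (5.77% called; median log2 fold change 0.02), a share near the 3.85% of all tested genes. Genes whose values over the 6 libraries were most like those of the 3 called genes were found by distance between centred log2 CPM among 8509 expressed genes. Closest to Gnas were Serpina3f (distance 0.05), Calr (0.06) and Rasgef1b (0.06). Calr, the endoplasmic reticulum chaperone calreticulin, averaged 678 CPM in IL-4+CGRP libraries and 854 CPM in IL-4 libraries. Closest to Adcy3 were Bach1 (0.03), Tmed8 (0.04) and Relch (0.04), and closest to Adcy6 were Tspan3 (0.11), Ets2 (0.13) and Gda (0.14). These distances rank profiles over 6 libraries and are a description only.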

How the data were processed

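RNA sequencing gave 3 IL-4+CGRP and 3 IL-4 macrophage libraries, grouped by the titles in the labels. Per the labels' protocols, RNA came from a TRIzol extraction (quality number 6.5 or more), and 1 µg went into a stranded mRNA kit. Per the submitters' processing notes, reads were handled with fastp, HISAT2 and StringTie on mouse build GRCm39. Tool versions, annotation, counting and its use of strand are unstated, so overlapping antisense genes share uncertain reads. The authors deposited a table of estimated counts (expected counts) per gene, made by a counting step not given in the sources used here. Its 57180 genes include 525 with no name, and 0 per-sample columns were unassigned. Values were rounded to whole numbers before testing.

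Of these genes, 13260 passed filterByExpr (99.91% of counts). TMM factors lay between 0.985 and 1.016. The main test was edgeR's quasi-likelihood F test with a robust fit and no covariate (edgeR 4.0.16, R 4.3.3), adjusted by Benjamini-Hochberg over all genes tested, with 0.05 as the threshold. CPM are counts over TMM-scaled totals, TPM also use the deposited gene lengths, and an SE is the log2 fold change over the root of F. Ratios and shares were compared by two-sided exact permutation tests of 3 against 3 libraries. In simulated data with 200 changed genes among 13260, the fit recovered 42% of 1.3-fold and 90% of 1.5-fold changes. The changed genes were drawn from those with higher counts, and every gene had the same dispersion. The rates therefore do not cover genes with few counts, such as Adcy4, or differences in spread between genes. Shared transcript sequence was found with BLAST+ 2.17.0 in GENCODE M21 (95% identity, 100 bases or more), and motifs in RefSeq windows on GRCm38.p6. Intervals on counts cover counting error only.

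The 8 genes, the lists and the settings were chosen with earlier results of these data known. The text names all 8 genes, each list gene past the threshold, the 2 smallest p-values in lists with none, and for Gnas, Adcy3 and Adcy6 the 3 nearest profiles (average log2 CPM of 3 or more, clone names left out). Gnb1, Gngt2, Gng11, Ric8b, Ramp1, Calcrl and the untested cyclases were added after their values were seen. Alternative settings were 3 other scalings, 2 other count filters, DESeq2 1.42.0, voom in limma 3.58.1, a non-robust fit, replicate blocks, and each library left out. Unrounded values were a setting added after seeing the data.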

Additional observations from a re-analysis of the deposited data

How the results depend on the processing

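The Gnas call held in every setting tried, and 1 of the 8 genes was lower in each. The 2 genes called higher became 0 under DESeq2, 0 with the replicate number as a block, and 0 to 3 with 1 library left out. Deviations of same-numbered libraries correlated at -0.188, -0.182 and 0.13. These values cannot settle whether the replicate numbers pair the libraries, which the labels do not state. Over all genes, 307 were higher and 204 lower. With no count filter these were 584 and 434, with the replicate block 176 and 86, and with 1 library left out 140 to 915 higher and 80 to 950 lower, both highest without IL-4+CGRP replicate 2. Of the list genes, 7 were higher and 1 lower. The replicate block gave 4 and 0, leaving out 1 library 2 to 12 higher and 0 to 3 lower, and no count filter 2 lower. Direction turned for some values near 0. Adcy7 was at 0.00797 (log2) with library totals alone. With 1 library left out, log2 fold changes ran from -0.0305 to 0.0217 for Gnai3, -0.134 to 0.535 for Adcy4 (4 fits, since it missed the count filter without IL-4+CGRP replicate 1 or 3) and -0.0451 to 0.0191 for Adcy7, and the Gnai2 to Gnai3 difference from -0.0593 to 0.00771. Share differences, in percentage points, ran from -0.0203 to 0.0268 for Adcy5, -0.0153 to 0.0330 for Adcy4 and -0.0312 to 0.00577 for Adcy2. The other 5 ratios and 4 shares kept their direction in every setting; pairing by replicate number leaves a mean ratio difference as it is (-0.28 for Gnas to Gnai2). The cause of these changes was not tested. Adcy4, with 3 to 11 counts, is limited most by depth.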
